A study of Sus scrofa with 14 samples.

Results

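The enzymes that make fatty acids from acetyl-CoA and join them into triglyceride were followed as a set of 10 genes, FASN, ACACA, ACLY, SCD, ELOVL6, ME1, THRSP, GPAM, DGAT1 and DGAT2, chosen by name and found by their Ensembl identifiers among 21280 protein-coding genes. All 10 of the 10 genes were present in the tables of counts and TPM and were placed on the Sscrofa11.1 genome. The study took 2 adipose depots, the visceral greater omentum (GOM) and the subcutaneous upper layer of backfat (ULB), from adult female pigs that were 2 years old. The lean breed was the wild boar, caught young and then raised on a farm, and the fat breed was the Bama pig, an indigenous Chinese pig. No treatment was given, and 2 animals stood for each breed. RNA-seq and Hi-C, which records contacts between stretches of chromatin, each gave 7 libraries. Wild boar (WB) had 2 of GOM and 2 of ULB, and Bama pig (BM) had 2 of GOM and 1, numbered replicate 2, of ULB. Each breed's animals gave both depots, so libraries of different depots are not fully independent.

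In de novo lipogenesis, citrate exported from mitochondria is cut to cytosolic acetyl-CoA, carboxylated to malonyl-CoA, and condensed into palmitate at the cost of NADPH. Palmitate is then elongated and desaturated, and the acyl chains are placed stepwise on a glycerol backbone until the last chain completes the triglyceride. In pigs, adipose tissue rather than liver is the main site of this synthesis, and the pathway follows feeding, insulin and sterol-responsive transcription factors. The animals had been fasted before tissue was taken.

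ACLY, which cuts citrate to acetyl-CoA, lies on chr12:20796678-20841301 on the plus strand. ACACA, the carboxylase that makes malonyl-CoA, lies on chr12:38580916-38875067 on the minus strand, and FASN, the synthase, on chr12:922405-937560 on the plus strand. ME1, a cytosolic malic enzyme that yields NADPH, lies on chr1:82799878-82989895 on the plus strand. SCD, the delta-9 desaturase, lies on chr14:111461560-111478033, and ELOVL6, which extends palmitate to stearate, on chr8:112038670-112190079, both on the plus strand. THRSP, a small lipogenic protein without known enzyme activity, and DGAT2, an acyltransferase of the last step, lie on chr9:12479913-12484323 and chr9:10032163-10066082 on the plus strand. DGAT1, the other acyltransferase of that step, lies on chr4:452890-463665 on the plus strand. GPAM, the mitochondrial acyltransferase that starts glycerolipid synthesis, lies on chr14:122538600-122582390 on the minus strand.

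The 250 bases upstream of the RefSeq start are shown for the 4 of 10 genes that held a CCAAT box there. They were read from the RefSeq Sscrofa11.1 sequence 5′ to 3′ on the gene's strand. Capitals mark the CCAAT box, a site read by NF-Y, as CCAAT or as ATTGG on the other strand.
ACLY (chr12:20796428-20796677): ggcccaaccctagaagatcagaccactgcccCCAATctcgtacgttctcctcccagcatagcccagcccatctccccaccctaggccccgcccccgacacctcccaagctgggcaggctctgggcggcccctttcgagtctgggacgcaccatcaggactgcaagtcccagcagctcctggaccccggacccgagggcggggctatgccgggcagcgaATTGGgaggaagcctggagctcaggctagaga
THRSP (chr9:12479663-12479912): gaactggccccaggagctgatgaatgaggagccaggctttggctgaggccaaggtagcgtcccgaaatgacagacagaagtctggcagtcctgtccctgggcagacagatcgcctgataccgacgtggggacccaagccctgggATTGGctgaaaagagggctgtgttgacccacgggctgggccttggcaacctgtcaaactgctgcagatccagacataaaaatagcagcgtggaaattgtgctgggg
SCD (chr14:111461310-111461559): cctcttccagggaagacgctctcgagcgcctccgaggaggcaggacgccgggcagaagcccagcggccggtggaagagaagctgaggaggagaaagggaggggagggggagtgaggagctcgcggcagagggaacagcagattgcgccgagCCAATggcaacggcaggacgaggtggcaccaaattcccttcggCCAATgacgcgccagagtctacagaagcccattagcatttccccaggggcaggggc
ELOVL6 (chr8:112038420-112038669): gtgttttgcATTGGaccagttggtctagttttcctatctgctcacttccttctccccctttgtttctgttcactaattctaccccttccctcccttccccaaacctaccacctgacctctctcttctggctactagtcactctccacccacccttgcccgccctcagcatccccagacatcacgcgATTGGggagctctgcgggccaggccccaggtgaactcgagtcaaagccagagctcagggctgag
ACLY, SCD and ELOVL6 each held 2 such boxes and THRSP held 1. In SCD, both boxes lay in the CCAAT orientation. The other 6 genes held none in the same window, so 4 of 10 had the box, compared with 31.7% of 18688 genes with a window of the same length. FASN and ACACA, whose expression went with that of ACLY and THRSP, were among the 6 without it. A link between the box and expression was not tested. The E-box CACGTG was found in 0 of 10 windows and in 6.38% of all genes, and the sterol element core TCACNCCAC in 0 of 10 and 0.808%. The GC box GGGCGG was found in 6 of 10 and 46.1%, and TATAAA in 1 of 10 and 9.65%, each on either strand. No motif of these contains another. A match describes the letters alone, and the RefSeq start is not a measured start site in these tissues.

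The depth of the RNA-seq libraries was 10833153 to 18627076 estimated counts. Depot identity was clear in the RNA. In every GOM library the summed TPM of the mesothelial genes UPK1B, WT1 and BNC1 was 78.6 to 191, and in ULB it was 0.103 to 1.29, while the 8 measured adipocyte genes summed to 9961 to 18817 in all libraries. TPM, a transcript abundance scaled by length and by library total, had not been normalised between libraries, and of 14163 genes above a TPM of 0.1 in all 7 libraries, 37.2% were highest in BM GOM replicate 1 and 25.4% in BM GOM replicate 2. Levels are therefore given as TPM, and differences as log2 fold changes from counts after TMM normalisation. Genes of the liver list were higher in Bama pig, with a summed TPM of 280 to 1335 against 170 to 217 in wild boar, and ALB alone reached 873 in BM GOM replicate 2. Skeletal muscle genes summed to 291 in WB ULB replicate 1 and to 6.41 or less in the other 6 libraries. Of the 7 liver genes measured, 4 passed edgeR's test over both depots, and 6 were higher in every BM library than in every WB library. The part of these signals in the results was not tested.

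The order of the 10 genes by mean TPM over the 7 libraries was SCD with 2869, THRSP with 1515, FASN with 1030, ELOVL6 with 528, DGAT2 with 327, ME1 with 281, ACLY with 279, ACACA with 206, GPAM with 9.93 and DGAT1 with 9.86. The spread over libraries was wide, with a coefficient of variation from 32.6% for GPAM to 98.8% for ACLY and more for SCD, so that neighbours such as DGAT2, ME1 and ACLY do not differ beyond their spread. GPAM and DGAT1 stood apart from the others, since their highest TPM of 13.2 and 16.9 lay below the lowest TPM of any of the other 8 genes, 59.8 for ACLY in BM ULB. Summed over the 10 genes, TPM was 3376 and 12674 in WB GOM, 5244 and 5337 in BM GOM, 12616 and 7554 in WB ULB, and 2584 in BM ULB. This was between 0.334% and 1.52% of the TPM of all listed genes, and the leading gene was SCD in all 3 ULB libraries and in WB GOM replicate 2, and THRSP in the other 3 GOM libraries.

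**Figure D1:**
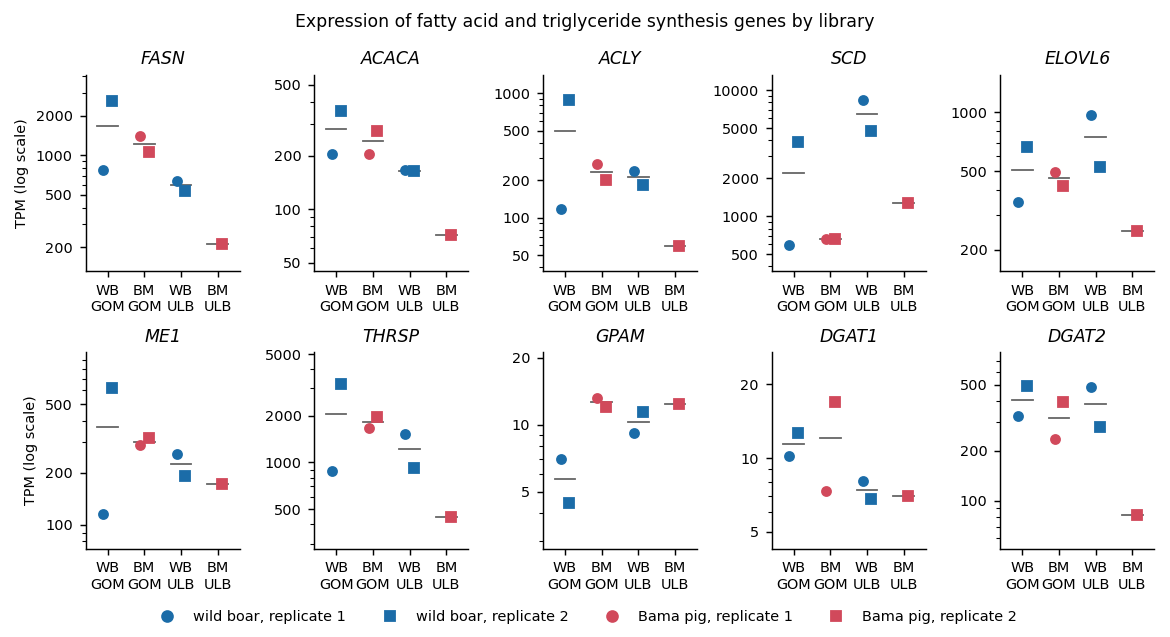
TPM of each gene (transcript abundance, log axis) in the 7 RNA-seq libraries, by breed (WB wild boar, BM Bama pig) and depot; points are libraries and bars are group means. FASN in GOM, at 778 to 2581, lay above ULB, at 211 to 644, whereas SCD was highest in WB ULB at 8312 and 4735.

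Between depots, the data addressed whether visceral and subcutaneous fat differ in synthesis genes. The enzymes of palmitate synthesis leaned to GOM and SCD leaned to ULB, but no gene of the 10 passed edgeR's test at an adjusted p below 0.05 with an absolute log2 fold change above 1. The fit used all 7 libraries with breed as a covariate and called 640 of 17877 genes (3.58%), 410 higher and 230 lower in GOM. Of the 10 genes, 7 had a positive and 3 a negative GOM minus ULB difference, with a median log2 fold change of 0.76 against 0.02 over all genes tested. Genes of other cell types were set beside the depots. Lymphocyte genes summed to a TPM of 42.6 to 63.0 in GOM and 23.1 to 29.5 in ULB, and 1 of 7, CD2, passed the test, while 4 of 7 differences were positive. Fibroblast and progenitor genes summed to 3065 to 4097 and 4710 to 7979, but 3 of 6 differences were positive and 3 negative, with 0 called. Macrophage sums of 431 to 777 and 282 to 535 overlapped, with 7 of 7 differences positive and 0 called, as did endothelial sums of 457 to 696 and 467 to 640, with 2 of 5 positive and 0 called. The part of these cell types in the depot values was not tested. In bulk tissue, fewer adipocytes and less RNA per adipocyte cannot be told apart.

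FASN TPM was 778 and 2581 in WB GOM, 1394 and 1064 in BM GOM, 644 and 539 in WB ULB, and 211 in BM ULB. Every GOM library lay above every ULB library. The log2 fold change was 1.91 (standard error, SE, 0.51, edgeR adjusted p = 0.0702 after Benjamini-Hochberg). ACACA, one step upstream, was 205 and 357 in WB GOM, 204 and 276 in BM GOM, 166 and 163 in WB ULB, and 71.7 in BM ULB. Its depots did not overlap in TPM, but they did in normalised log2 CPM, where BM GOM replicate 1, at 9.92, lay below WB ULB, at 10.14 and 9.94. The ACACA log2 fold change was 1.14 (SE 0.36, edgeR adjusted p = 0.114). DESeq2, the tool of the study's methods, called 1399 of 17877 genes between depots, where edgeR called 640. FASN and ACACA were among the 1399, at DESeq2 adjusted p of 0.000286 and 0.0147 with log2 fold changes of 1.86 and 1.09. In TPM, FASN and ACACA were the 2 of 10 genes with no overlap in the direction GOM above ULB, a pattern held by 8.85% of 14163 genes, and 0 of 10 genes showed the reverse, held by 2.48%. Of the 2, FASN alone kept this order in normalised log2 CPM.

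ACLY did not follow as cleanly, because WB GOM replicate 1 was low. Its TPM was 117 and 883 in WB GOM, 268 and 202 in BM GOM, 238 and 184 in WB ULB, and 59.8 in BM ULB. The depots overlapped, and the log2 fold change was 1.54 (SE 0.59, edgeR adjusted p = 0.188). ME1 was 116 and 622 in WB GOM, 289 and 317 in BM GOM, 256 and 191 in WB ULB, and 173 in BM ULB. The lowest and the highest of all 7 ME1 values were thus the replicates of WB GOM, and the log2 fold change was 0.75 (SE 0.52, edgeR adjusted p = 0.443). THRSP was 878 and 3202 in WB GOM, 1678 and 1966 in BM GOM, 1521 and 918 in WB ULB, and 444 in BM ULB. With 1 GOM library below 2 of 3 ULB libraries, its log2 fold change was 1.24 (SE 0.50, edgeR adjusted p = 0.206).

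SCD ran the other way. Its TPM was 590 and 3850 in WB GOM, 657 and 665 in BM GOM, 8312 and 4735 in WB ULB, and 1274 in BM ULB. In TPM, every ULB library lay above every GOM library of its breed, while WB GOM replicate 2 lay above BM ULB. In normalised log2 CPM, WB GOM replicate 2, at 14.12, also lay above WB ULB replicate 2, at 13.97, and the log2 fold change was -1.32 (SE 0.60, edgeR adjusted p = 0.257). In rank, SCD was the 8th and the 19th most abundant of all genes in WB ULB, the 64th in BM ULB, the 164th and the 26th in WB GOM, and the 141st and the 168th in BM GOM. ELOVL6, the partner of SCD in the handling of palmitate, was 351 and 669 in WB GOM, 498 and 423 in BM GOM, 974 and 528 in WB ULB, and 249 in BM ULB. Its depots overlapped, with a log2 fold change of -0.03 (SE 0.41, edgeR adjusted p = 0.977), which turned to 0.19 when libraries were scaled to adipocyte markers.

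For the acyltransferases, no depot difference passed the test, and the values of the depots overlapped. DGAT2 TPM was 324 and 491 in WB GOM, 235 and 394 in BM GOM, 486 and 278 in WB ULB, and 82.2 in BM ULB. BM ULB alone stood low, and the log2 fold change was 0.77 (SE 0.44, edgeR adjusted p = 0.353). DGAT1 was 10.2 and 12.7 in WB GOM, 7.34 and 16.9 in BM GOM, 8.05 and 6.82 in WB ULB, and 6.98 in BM ULB. Its values overlapped through BM GOM replicate 1, and the log2 fold change was 0.66 (SE 0.35, edgeR adjusted p = 0.322). GPAM was 6.98 and 4.42 in WB GOM, 13.2 and 12.0 in BM GOM, 9.13 and 11.4 in WB ULB, and 12.4 in BM ULB. The Bama pig libraries were the 3 highest, and the depot log2 fold change was -0.55 (SE 0.23, edgeR adjusted p = 0.224). In normalised log2 CPM, GPAM leaned to ULB within each breed. It was 4.87 and 4.45 in WB GOM against 5.21 and 5.36 in WB ULB. In Bama pig it was 5.23 and 5.22 in GOM against 5.68 in ULB.

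The balance between the transcripts of desaturation and synthesis genes can be read within a library, where scaling between libraries cancels. The ratio of SCD to FASN TPM was 0.759 and 1.49 in WB GOM, 0.471 and 0.625 in BM GOM, 12.9 and 8.79 in WB ULB, and 6.05 in BM ULB. The depots did not overlap, and both breeds had the higher ratio in ULB. This pair was chosen after its values were seen, so the ratio is a description without a test. SCD to ACACA, at 2.41 to 10.8 in GOM and 17.8 to 50.0 in ULB, did not overlap either. SCD to ELOVL6 did overlap, at 1.32 to 5.75 in GOM and 5.11 to 8.96 in ULB. The ratio of FASN to ACACA ranged from 2.94 to 7.23 and overlapped between depots, as did that of ACLY to ACACA at 0.571 to 2.47. THRSP to FASN, at 1.13 to 1.85 in GOM and 1.70 to 2.36 in ULB, overlapped as well.

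**Figure D2:**
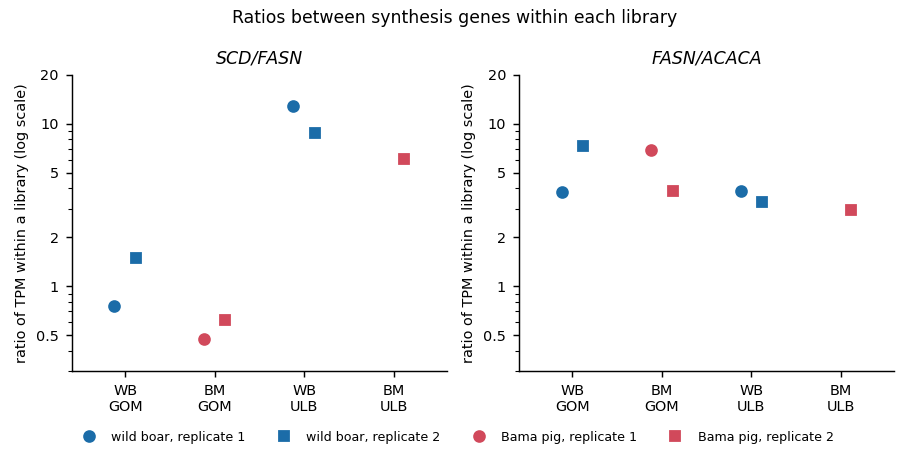
Ratios of TPM within each library (log axis, no unit) for SCD to FASN and for FASN to ACACA, by breed (WB wild boar, BM Bama pig) and depot; each point is a library. SCD to FASN was at most 1.49 in GOM and at least 6.05 in ULB, while FASN to ACACA overlapped.

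Between breeds, the comparison asked whether a fat pig and a lean wild boar differ in these genes. The direction of 9 of 10 differences was toward wild boar, the lean breed, and GPAM alone was toward Bama pig, but again no gene passed edgeR's test. Over both depots, with depot as a covariate and 7 libraries, 75 of 17877 genes were called (0.42%), 22 higher and 53 lower in wild boar. The median log2 fold change of the 10 genes was 1.06 against -0.04 over all genes tested, and 6 of the 10 had an unadjusted p below 0.05, as did 21.6% of all genes. In GOM alone, where 2 libraries stood against 2, 4 of 16615 genes were called (0.0241%), and the 10 genes had a median of 0.90 against -0.01. In the same GOM comparison, macrophage genes had 7 of 7 positive differences, with a median of 0.65, and fibroblast and progenitor genes 6 of 6, with a median of 0.73, 0 of them called, and their part in the breed values was not tested. The 2 comparisons share their GOM libraries and are not separate evidence.

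SCD had the largest breed difference of the 10, with a log2 fold change of 2.37 over both depots (SE 0.66, edgeR adjusted p = 0.119) and 2.43 in GOM (SE 1.04, edgeR adjusted p = 0.623). In ULB, where 1 library stood for Bama pig, the TPM of 8312 and 4735 in wild boar set against 1274 gave a difference in normalised log2 CPM of 2.19, without a test. ACLY followed with 1.76 (SE 0.60, edgeR adjusted p = 0.153), then DGAT2 with 1.42 (SE 0.44, edgeR adjusted p = 0.136) and FASN with 1.23 (SE 0.50, edgeR adjusted p = 0.193). DESeq2 called 1157 of 17877 genes over both depots, where edgeR called 75, and 167 of 16615 in GOM, where edgeR called 4. FASN, ACLY and DGAT2 were among the 1157, with DESeq2 adjusted p of 0.0487, 0.0209 and 0.0122. SCD was among the 167 in GOM, at a DESeq2 adjusted p of 0.043. ELOVL6 at 1.07, THRSP at 1.04, ACACA at 0.95, ME1 at 0.68 and DGAT1 at 0.31 had log2 fold changes with edgeR adjusted p between 0.174 and 0.631.

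GPAM, with a log2 fold change of -0.49 over both depots (SE 0.23, edgeR adjusted p = 0.249), was the 1 of 10 genes whose TPM was higher in all 3 Bama pig libraries than in all 4 wild boar libraries, at 12.0 to 13.2 against 4.42 to 11.4. That order was held by 10.3% of 14163 genes. In normalised log2 CPM the breeds overlapped, with 5.22 in BM GOM replicate 2 and 5.36 in WB ULB replicate 2. The reverse order was held by 0 of 10 genes and 1.09% of all genes.

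**Figure D3:**
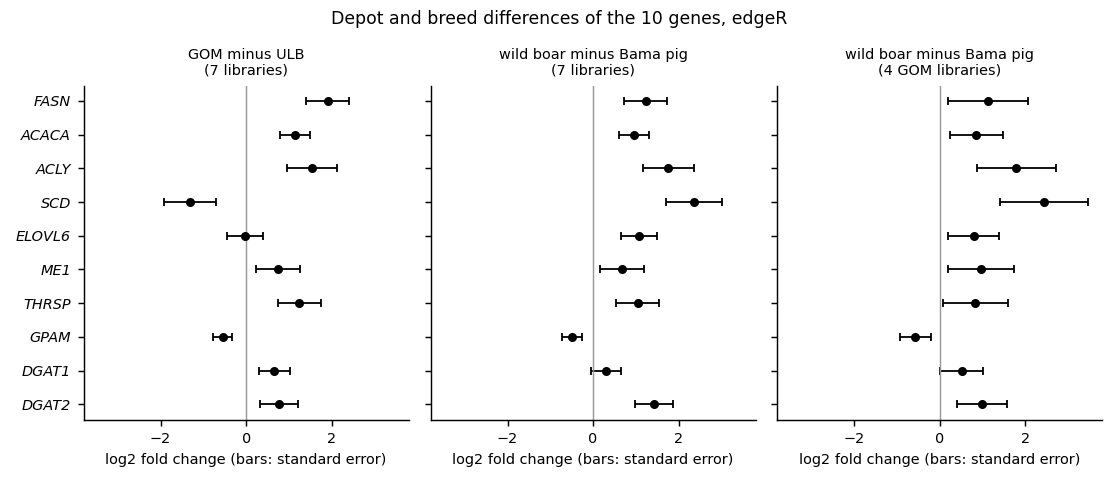
Log2 fold changes (x axis) of the 10 genes from edgeR with standard errors as bars, for GOM minus ULB and wild boar minus Bama pig over 7 libraries and wild boar minus Bama pig in the 4 GOM libraries. The breed estimates lie above 0 except for GPAM, and SCD is the gene with the most negative depot estimate, -1.32, and, over 7 libraries, the largest breed estimate, 2.37; no gene passed the test.

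For FASN, ACLY, ME1, THRSP and SCD, the breed difference in GOM rested on WB GOM replicate 2. That library held the highest TPM of 6 of the 10 genes, FASN, ACACA, ACLY, ME1, THRSP and DGAT2, while it was the highest for 4.54% of 14163 genes. In normalised log2 CPM it exceeded replicate 1 by 3.15 for ACLY, 2.94 for SCD, 2.66 for ME1, 2.10 for THRSP and 1.97 for FASN, whereas the median absolute difference between these replicates over all genes was 0.45. Only 0.677% of genes differed more than ACLY did. Between the BM GOM replicates the median absolute difference of the 10 genes was 0.28, below the 0.57 of all genes, and within WB ULB it was 0.57 against 0.34. Without WB GOM replicate 2, the GOM log2 fold changes became -0.21 for FASN, -0.56 for ACLY, -0.95 for ME1, -0.62 for THRSP and 0.28 for SCD. Over both depots SCD was then 1.30, ACLY 0.60, FASN 0.61 and ME1 -0.31. The depot log2 fold change without it was 1.29 for FASN, 0.86 for ACACA, 0.38 for ACLY, -0.25 for ME1 and -2.39 for SCD. ACACA, SCD, ELOVL6, DGAT2 and GPAM kept the direction of their breed difference in GOM whichever GOM library was left out. Log2 fold changes ranged from 0.204 to 1.271 for ACACA, 0.275 to 3.246 for SCD and 0.049 to 1.248 for ELOVL6. They ranged from 0.466 to 1.497 for DGAT2 and from -0.801 to -0.406 for GPAM.

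The replicate number did not carry the high values over to ULB. Replicate 1 of wild boar was the higher one in ULB for 9 of 10 genes and the lower one in GOM for 9 of 10 genes in normalised log2 CPM. The adipocyte genes summed to a TPM of 9961 in WB GOM replicate 1, the lowest of all libraries, and 13585 in replicate 2, and mesothelial genes to 191 and 78.6. Macrophage genes were 777 and 714 and liver genes 180 and 170 in the same libraries. The part of these levels in the difference between the replicates was not tested. Leaving out WB GOM replicate 1 instead put ACLY and FASN past edgeR's thresholds for the depot difference, with adjusted p of 0.0249 and 0.0241, and ACLY and SCD for the breed difference over both depots, with adjusted p of 0.0365 and 0.042.

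A difference in the breed effect between depots was tested as an interaction over 7 libraries, and 0 of 17877 genes (0%) were called by edgeR, with 869 at an unadjusted p below 0.05 and 52 called by DESeq2. The interaction of the 10 genes ran from -1.14 for DGAT2 (SE 0.82) to 0.69 for ME1 (SE 1.08) on the log2 scale. The SE ran from 0.49 for GPAM to 1.31 for SCD, so the width of these estimates differed between genes.

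Across the 7 libraries, the 10 genes split into patterns that the depot and breed values above already show. Pearson's r between log2 CPM values is given as a description over 7 libraries that share animals, depth and adipocyte content. FASN went with THRSP and ACACA (both 0.94) and with ACLY (0.91), and ACLY with THRSP (0.95) and ME1 (0.89). SCD went with ELOVL6 (0.83) and little with FASN (0.11) or ACACA (0.19), while ELOVL6 also went with DGAT2 (0.82) and ACLY (0.77). GPAM ran opposite to ACACA (-0.95) and FASN (-0.93). The 45 pairs had a median r of 0.59, and the 9 pairs below 0 were those with GPAM.

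Among the genes whose log2 CPM was most like the mean of the 10, out of 9258 genes with a mean TPM of at least 5, were TEN1 (r = 0.992, 7 libraries), a telomere capping protein gene, PDHX (0.984), a component of the pyruvate dehydrogenase complex, NDUFB6 (0.967), a subunit of respiratory complex I, and POLB (0.962), a repair polymerase. TEN1 ranged from 2.78 to 7.9 and PDHX from 18.7 to 43.8, both with the lowest TPM in BM ULB and the highest in WB GOM replicate 2.

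Of the transcription factors that drive lipogenesis and their partners, 0 of 14 were called in any of the comparisons. Over all genes tested, 3.58% were called between depots and 0.42% between breeds over both depots. In GOM alone 0.0241% were called between breeds, and 0% for the interaction. SREBF1, which encodes the sterol regulatory protein that activates FASN, ACACA and SCD, had a TPM of 18.2 and 15.3 in WB GOM, 25.4 and 18.5 in BM GOM, 32.4 and 21.8 in WB ULB, and 24.5 in BM ULB. Its log2 fold change was -0.54 between depots (SE 0.25, edgeR adjusted p = 0.262) and 0.15 between breeds over both depots (SE 0.25, edgeR adjusted p = 0.750). MLXIPL, the gene of the carbohydrate response factor ChREBP, was 9.06 and 12.3 in WB GOM, 78.2 and 15.6 in BM GOM, 13.1 and 19.8 in WB ULB, and 33.8 in BM ULB. Its breed log2 fold change was -1.35 (SE 0.44, edgeR adjusted p = 0.145), with 1 Bama pig library far above the rest.

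INSIG1, a sterol-sensing retention protein and a target of the same pathway, had a breed log2 fold change of 0.94 over both depots (SE 0.27, edgeR adjusted p = 0.123), with a TPM of 16.8 and 18.2 in WB GOM, 11.8 and 14.7 in BM GOM, 19.1 and 13.6 in WB ULB, and 8.61 in BM ULB. NR1H3, the liver X receptor alpha gene, had a depot log2 fold change of 0.66 (SE 0.24, edgeR adjusted p = 0.159), with 37.6 to 66.1 TPM in GOM and 25.3 to 34.8 in ULB. PPARG, the adipocyte master regulator, was between 113 and 216 TPM, with log2 fold changes of -0.13 between depots and 0.05 between breeds, both within their standard error of 0.28.

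Of the genes that supply acetyl-CoA and NADPH, 0 of 16 passed in any comparison, although 14 of 16 had a positive breed difference over both depots, with a median log2 fold change of 0.59 and 7 with an unadjusted p below 0.05. Over all genes tested, 47.6% were positive, the median was -0.04, 21.6% had such a p and 0.42% were called. Between depots, 3.58% of all genes were called. TALDO1, of the pentose phosphate pathway, PC, pyruvate carboxylase, and IDH1, the cytosolic isocitrate dehydrogenase, had the highest mean TPM, 509, 469 and 424. Their breed log2 fold changes were 1.05, -0.08 and 0.13 and their depot log2 fold changes 0.26, -0.63 and 0.16, with edgeR adjusted p from 0.188 to 0.895.

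Among elongation and desaturation genes, 1 of 22 tested passed between depots, where 3.58% of all genes did. Between breeds 0 passed, where 0.42% of all genes did over both depots. SCD5, a second stearoyl-CoA desaturase gene, rose in GOM with a log2 fold change of 2.53 (SE 0.36, edgeR adjusted p = 0.00461). Its TPM was 13.8 and 7.33 in WB GOM, 13.2 and 11.9 in BM GOM, 2.69 and 1.70 in WB ULB, and 1.42 in BM ULB. SCD5 thus lay the opposite way to SCD between depots, at a mean TPM of 7.44 against 2869. ELOVL5, ACSL1 and HSD17B12, the most abundant of the list by mean TPM at 570, 215 and 188, had breed log2 fold changes of -0.15, 0.65 and 0.95, none past the test.

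Among the genes that assemble glycerolipids, 0 of 13 tested passed in any comparison. Of all genes, 3.58% passed between depots and 0.42% between breeds over both depots. GPD1, which makes glycerol 3-phosphate, AGPAT1, which adds the acyl chain after GPAM, and GPAT4, the acyltransferase of the endoplasmic reticulum that shares the reaction of GPAM, had a mean TPM of 229, 162 and 133. GPAT4, at 89.8 to 163 TPM, was in every library far above GPAM, at 4.42 to 13.2. Breed log2 fold changes of GPD1, AGPAT1 and GPAT4 over both depots were 1.01, -0.36 and 0.43, and depot log2 fold changes were 0.39, -0.25 and -0.28, none past the test.

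Chromatin at the 10 loci was read from the deposited compartment score in 20-kb bins. The score is named A-B index and was taken here as the first principal component (PC1) of the Hi-C contact matrix. A positive value was read as compartment A, the gene-rich and active compartment, and a negative value as compartment B. The size of PC1 is not comparable between chromosomes. At the bin of the start site, 8 of 10 genes were in A in all 7 libraries (80.0%), compared with 72.0% of 18691 placed genes and 40.8% of 113298 bins. FASN lay at 27.9 to 32.2, ACLY at 28.5 to 33.3 and THRSP at 21.1 to 31.7, and DGAT1, near a chromosome end, at 60.3 to 73.6, between the 99.0th and the 99.9th percentile of its chromosome. SCD lay at 15.9 to 28.8, DGAT2 at 10.1 to 22.5, ELOVL6 at 6.5 to 18.1 and GPAM at 5.7 to 15.8.

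The exceptions were ACACA and ME1. The start of ACACA lay at PC1 -0.5, -1.8, -3.0, -2.6, -1.9, 0.8 and -1.5 in WB GOM 1 and 2, BM GOM 1 and 2, WB ULB 1 and 2 and BM ULB 2, so that 1 of 7 libraries put it in A. Of the 15 bins that its body touches, 13 were negative in all libraries. ME1 lay at -6.3, -20.1, -21.1, -9.8, -15.7, -17.6 and -18.9 in the same order, in B in all 7 libraries, as were 10 of its 11 bins. Both genes were well expressed, at a mean TPM of 206 and 281. Of 888 placed genes with a mean TPM of at least 100, 23 (2.59%) were in B at the start site in all 7 libraries and 33 (3.72%) were in A in at most 1.

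**Figure D4:**
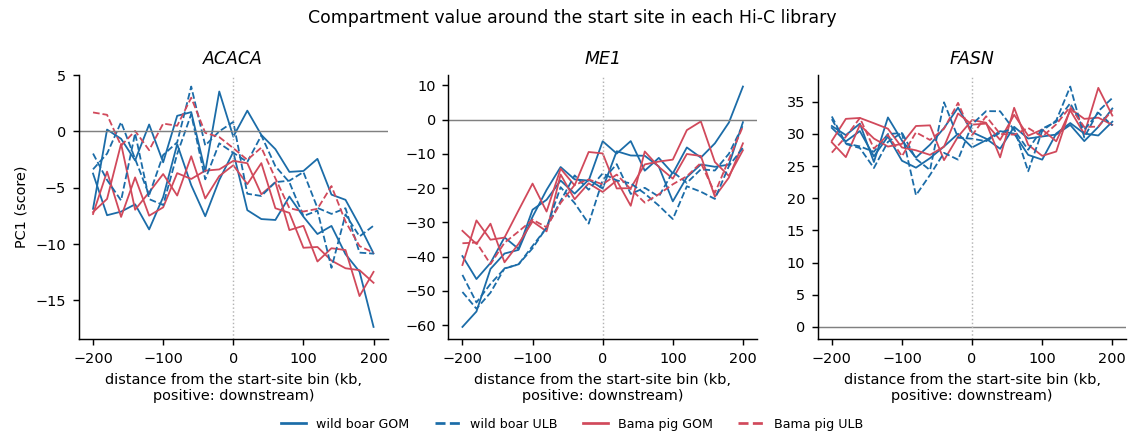
PC1 (score, y axis) in 20-kb bins by distance from the start-site bin (kb, positive downstream) around ACACA, ME1 and FASN, with a line for each Hi-C library. FASN stays far above 0, ACACA lies near 0 at its start, between -3.0 and 0.8, and falls into negative values along its body, and ME1 lies below 0 at its start in every library.

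No start-site bin of the 10 genes passed limma's test for a PC1 difference. Between depots, 2609 of 113298 bins were called (2.3%). The largest start-site differences of the 10 genes were 3.44 for GPAM (SE 2.76, limma adjusted p = 0.507) and 3.43 for ME1 (SE 3.99, limma adjusted p = 0.662). At THRSP the start-site difference was 0.77 (SE 2.59, limma adjusted p = 0.895), but the depots separated in some nearby bins. At -120 kb, GOM was 20.1 to 30.3 and ULB 9.84 to 17.7, while at -100 kb the depots overlapped. Whether such flanking bins were called is not given here. FASN, with the largest depot log2 fold change in RNA, had a PC1 difference of 0.03 (SE 2.46, limma adjusted p = 0.996). Between breeds, 11 of 113298 bins were called (0.00971%), although 13720 had an unadjusted p below 0.05.

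SCD and ELOVL6 had a more positive PC1 in wild boar, by 6.84 (SE 3.20, limma adjusted p = 0.435) and 6.71 (SE 2.61, limma adjusted p = 0.360). At ELOVL6 the 4 wild boar libraries, at 18.1, 13.7, 14.5 and 16.6, lay above the 3 Bama pig libraries, at 10.7, 6.5 and 9.7. THRSP and DGAT2, both on chromosome 9, went the other way by -6.12 (SE 2.59, limma adjusted p = 0.394) and -6.61 (SE 2.79, limma adjusted p = 0.394). At THRSP the wild boar values of 22.9, 23.4, 21.1 and 26.1 lay below the Bama pig values of 31.7, 29.2 and 27.9. DGAT2 had the same order, with 16.0, 14.6, 12.3 and 10.1 against 16.7, 20.8 and 22.5. In the 20-kb bin on either side of the start-site bin, the breeds overlapped at ELOVL6, THRSP and DGAT2. SCD had the opposite pattern, with overlap in the start-site bin, at 19.6 to 28.8 in wild boar and 15.9 to 22.5 in Bama pig. In the bins beside it, wild boar lay above Bama pig. At -20 kb the values were 17.88 to 23.50 against 10.95 to 15.61, and at 20 kb 21.33 to 27.11 against 12.39 to 15.99. Over the alternative settings, the PC1 difference ranged from -7.74 to -2.3 for THRSP and -8.41 to -2.04 for DGAT2. The range was 5.38 to 7.68 for ELOVL6 and 3.87 to 9.47 for SCD. Bins with all WB libraries above all BM libraries, as for 1 of the 10 start sites, made up 4.51% of all bins, and those with the reverse, as for 2 of the 10, made up 4.38%. None of these differences moved a start site out of compartment A.

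**Figure D5:**
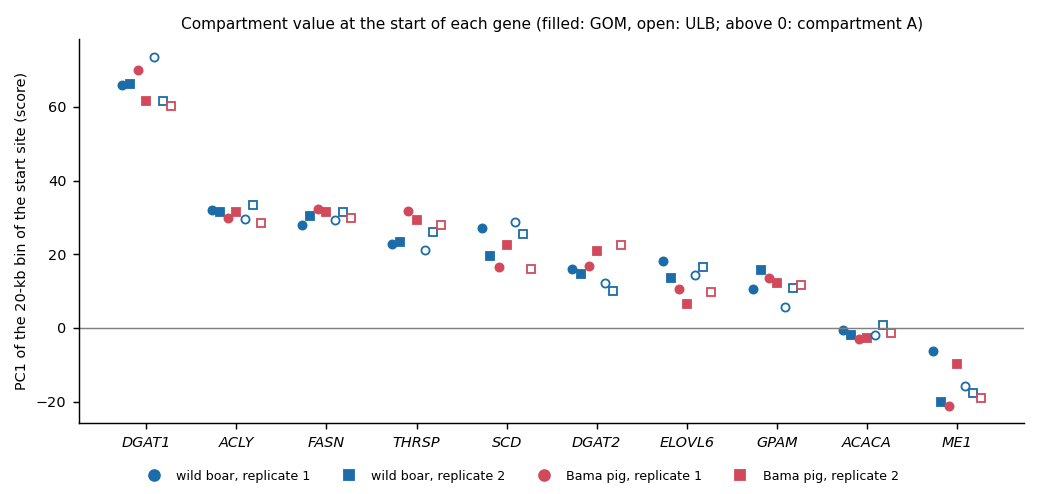
PC1 (score, y axis) of the 20-kb bin at the start of each gene in the 7 Hi-C libraries, ordered by mean, with filled points for GOM and open points for ULB. The other 8 genes stay above 0 in every library, ACACA lies between -3.0 and 0.8, and ME1 lies between -21.1 and -6.3.

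Topologically associating domains (TADs), called by the authors on merged replicates for each breed and depot, held the start of FASN, ACLY, SCD, ELOVL6, ME1, GPAM and DGAT1 in all 4 lists. For FASN, ME1 and GPAM, both domain edges stayed within 40 kb over the 4 lists, so 3 of 7 genes kept both edges, compared with 50.3% of 13362 genes that were in a TAD of all 4 lists. The FASN domain ran over 780 to 800 kb, the GPAM domain over 220 to 240 kb, and the ME1 domain over 300 to 340 kb. SCD lay in a domain of 240 kb in WB GOM, 300 kb in BM GOM, 320 kb in WB ULB and 280 kb in BM ULB. The ACLY domain was 700 kb in GOM and 360 or 340 kb in ULB of wild boar and Bama pig, since its start spread over 340 kb between the lists. ACACA was in a domain in 3 lists, and THRSP and DGAT2 in 1 list each, that of WB GOM. There the THRSP start lay 0.087 kb from the domain edge, and the gene was not wholly within the domain. The DGAT2 start lay 7.84 to 12.2 kb from the nearest domain edge in all 4 lists. These distances are below the 20-kb bin. The BM ULB list was called on merged replicates and so may include contacts of replicate 1, whose own values were not analysed here. With merged replicates, a difference between lists has no replicate check.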

How the data were processed

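Libraries were assigned to breed, depot and replicate from the sample titles. The authors quantified RNA-seq with kallisto (0.43.0 in the submitters' processing notes) on Sscrofa11.1 with Ensembl annotation and deposited estimated counts per gene, not normalized, and TPM values per gene and library, which sum to 774260 to 956616 over the listed genes. The authors also deposited a compartment score per 20-kb bin, named A-B index. Its mean is 0 on each chromosome, so it was taken as PC1, while the plan had named it only a compartment value. The paper defines its AB index separately from PC1, as an A score less a B score. TADs were given by the authors as start and end per breed and depot. PC1 and TADs carry no depth.

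Counts were rounded. edgeR 4.0.16 (TMM, quasi-likelihood F test, two-sided, R 4.3.3) was fitted to all genes with TPM above 0.1 in every library of at least 1 group, with Benjamini-Hochberg adjustment. A gene was called at an adjusted p under 0.05 with its log2 fold change beyond 1 in size. limma 3.58.1 was fitted to PC1 of all 113298 bins. Log2 CPM used a prior count of 2. DESeq2 1.42.0, upper-quartile and adipocyte-marker scaling, no TPM filter, a replicate block and leaving out each library were alternatives. Symbols came from a gene table for 14821 of 21280 identifiers, and positions from RefSeq.

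The 10 genes, the pathway and marker lists and the tests were chosen with earlier results of these data known. From each pathway list, the called genes with the largest fold, or else the 3 with the highest mean TPM, were named, with SREBF1, MLXIPL, NR1H3, PPARG and INSIG1 in any case. The fits were tested on simulated data. With 2 animals per breed, p-values measure the spread between these libraries. Separate values of Bama pig ULB replicate 1 were not used here, but the merged TAD list may include it. Of the 5 genes most like the mean of the 10, 1 is not reported here.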

Additional observations from a re-analysis of the deposited data

How the results depend on the processing

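The gene counts called by edgeR depended on the tool and on single libraries, and the cause was not tested. DESeq2 called 167 genes for the breed difference in GOM, 1157 for the breed difference over both depots, 1399 for the depot difference and 52 for the interaction, and 1 (SCD), 3 (FASN, ACLY, DGAT2) and 2 (FASN, ACACA) of the 10 genes in the first 3. Without the TPM filter the counts were 26, 503, 999 and 7, with 1 of the 10 genes over both depots (SCD) and 1 between depots (FASN). Scaling to adipocyte markers gave 111 genes in GOM and 2 of the 10 genes between depots (FASN, ACACA), and turned the depot difference of ELOVL6 to 0.19. A fit of all 7 libraries called 1 gene in GOM.

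No replicate number is stated to mark an animal. Replicate 1 of WB GOM and of WB ULB deviated together with a correlation of 0.154. For replicate 1 of WB GOM and of BM GOM, which are different animals, it was 0.150. With the replicate block, 15 genes were called in GOM, 581 for the interaction and 0 bins of PC1 between depots, where FASN became -0.31, and none of the 10 genes was called. A limma-voom fit with animal as a random block, read from breed and replicate number, called 216 genes over both depots. Its correlation within animals was -0.134. Tool and block both differ from the edgeR fit, so the effect of the block alone is not given by this count. Centring PC1 on the chromosome median gave 22 bins between breeds and -0.48 for FASN between depots.

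Leaving out each library in turn, genes called ranged from 0 to 123 in GOM, 1 to 1805 over both depots, 230 to 656 between depots and 0 to 1 for the interaction, and bins from 0 to 700 between depots and 6 to 1523 between breeds. The most genes over both depots, 1805, came without BM GOM replicate 2 and the fewest, 1, without BM ULB replicate 2. From 0 to 2 of the 10 genes were called over both depots and from 0 to 2 between depots. Log2 fold changes that turned sign ranged in GOM from -0.21 to 1.78 for FASN, -0.56 to 2.62 for ACLY, -0.95 to 1.74 for ME1, -0.62 to 1.51 for THRSP and -0.008 to 1.33 for DGAT1. Over both depots they ranged from -0.31 to 1.02 for ME1 and -0.002 to 0.61 for DGAT1, between depots from -0.34 to 0.37 for ELOVL6 and -0.25 to 1.09 for ME1, and for the interaction from -1.18 to 1.48 for ME1. Depot differences in PC1 ranged from -0.03 to 6.87 for ME1 and -1.29 to 0.95 for FASN. The interaction without BM ULB could not be fitted. A group left with 1 library is assumed to vary like the others, and PC1 has no known depth.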
